A study of Mus musculus with 6 samples.

Results

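The transcripts described are those of 10 antioxidant enzymes, chosen by name: Nqo1, Gclc, Gclm, Txnrd1, Gpx1, Gpx3, Sod1, Sod2, Cat and Prdx1. All 10 were among the 7373 rows of the deposited table, and all 10 were tested. RNA came from snap-frozen kidney of the inbred mouse strain FVB/N, all animals being adult males. The transgenic group (3 samples) carried an R120G mutant of CryAB, which belongs to the small heat shock proteins, and was sampled before heart failure began. Its promoter, that of α-myosin heavy chain, drives the transgene in heart muscle cells and not in kidney. The control group (3 samples) consisted of mice matched for sex and age; the file headers mark all 6 samples Pre_IRI, and the labels give no further allele or agent for either group. No label ties the samples to separate animals, so what a p-value measures here is spread from sample to sample.

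Cells meet reactive oxygen species with enzymes that work in relay. Superoxide dismutases turn superoxide into hydrogen peroxide, and catalase, glutathione peroxidases and peroxiredoxins remove the peroxide. Glutamate-cysteine ligase carries out the first step in building glutathione from its amino acids, and peroxiredoxins are reset by thioredoxin and its reductase. The transcription factor NRF2 (gene Nfe2l2), held back by its partner KEAP1, raises several of these genes through a short DNA sequence, the antioxidant response element. The proximal tubule, rich in mitochondria and peroxisomes, carries much of this machinery in the kidney and makes most of the plasma glutathione peroxidase.

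Among the 10 enzymes, 3 are selenoproteins, in which the codon TGA is read as selenocysteine, the catalytic residue, and not as a stop. The codon was located in the GENCODE M21 transcripts at the selenocysteine positions of that annotation, and is shown in capitals with the 12 bases before it and the 6 after. It lies at chr9:108339451-108339453 in Gpx1, chr11:54907256-54907258 in Gpx3 and chr10:82896037-82896039 in Txnrd1, all on the plus strand of GRCm38, the assembly named mm10. In Txnrd1 the stop codon taa ends the stretch.
Gpx1: gtcgcgtctctcTGAggcacc
Gpx3: gtagccagctacTGAggtctg
Txnrd1: cagtctggctgcTGAggttaa

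The core of the antioxidant response element, TGACNNNGC, was searched on both strands of RefSeq promoter windows of 300 bases (GRCm38.p6; 250 before the start site and 50 after). Of the 10 genes, 9 had a window (Gclc did not), and 4 of these 9 held the core: Gclm, Txnrd1, Sod1 and Prdx1. By comparison, 17.3% of the 5972 table genes with a window held it. Stretches of 60 bases around it are shown because they set the promoters of the group side by side; capitals mark the core, which reads GCNNNGTCA on the gene's strand in all 4. They lie at chr3:122245397-122245456, chr10:82859088-82859147, chr16:90220680-90220739 and chr4:116685440-116685499 on the plus strand, in the order Gclm, Txnrd1, Sod1 and Prdx1. In the same order, the core starts 134, 92, 56 and 133 bases before the start site of its window. For Sod1 and Prdx1 that site is the gene start given below, and for Gclm and Txnrd1 it is not. Txnrd1 has several windows, of which 1 held the core, at 82858956 to 82859255, downstream of the gene start at 82833951.
Gclm: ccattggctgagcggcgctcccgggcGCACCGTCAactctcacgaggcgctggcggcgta
Txnrd1: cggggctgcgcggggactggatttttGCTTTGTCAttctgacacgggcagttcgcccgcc
Sod1: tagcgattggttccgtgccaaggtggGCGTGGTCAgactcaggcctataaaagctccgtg
Prdx1: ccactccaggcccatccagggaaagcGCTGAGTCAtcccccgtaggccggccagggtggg
A match of letters is a description of these windows and not of binding. Sequence outside the windows was not searched, so a gene without the core here may hold it elsewhere.

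Over the 7373 listed genes, the libraries held 23500918 to 31708474 estimated counts in transgenic kidneys and 28048168 to 47558065 in control kidneys. Control kidney 3 stood apart. It had the most counts, 47558065, where the other 5 libraries held 23500918 to 34887274. The 178 genes listed on X and Y all read 0 there. Control 3 also lay at 24.7 on a first principal component on which the other 5 libraries spanned -12.5 to 0.71. None of the 10 enzyme genes is on X or Y, and those chromosomes were left out of the fit. Because control 3 also differs in other genes, each enzyme's difference is given with and without it. Levels are in CPM, a library's counts over the listed genes outside X and Y, scaled to a common total after TMM normalization. Cryab, the kidney's own gene for the transgenic protein, stood at 186, 178 and 194 CPM in transgenic kidneys, against 210.1, 223 and 292 CPM in controls (log2 fold change -0.38, not called); with a heart promoter this does not check the labels. All 16 proximal tubule markers were among the listed genes, while none of 8 heart and skeletal muscle markers was. In whole kidney, fewer cells of a type and less RNA per cell cannot be told apart.

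None of the 10 antioxidant transcripts passed the test, and in none of them were the transgenic kidneys all above or all below the controls. Transgenic and control kidneys differed by at most 1.10-fold in any of the 10 group estimates, that of Gclc, the catalytic subunit of glutamate-cysteine ligase. The next largest estimate was that of Gpx3, the secreted plasma glutathione peroxidase, at 1.05-fold. The estimate was above 0 in 5 enzymes and below 0 in 5; over all genes it was above 0 in 50.3%.

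Adjusted p was 0.997 for 9 of them and 0.998 for Cat (edgeR quasi-likelihood test, Benjamini-Hochberg adjustment over 7194 genes), and the smallest unadjusted p was 0.399. In the same fit 1 of 7194 genes (0.0139%) passed an adjusted p of 0.05, namely the renin gene Ren1, which is not an antioxidant gene. That count was 0 without control 1 or any 1 transgenic kidney, and 2 without control 3. An unadjusted p under 0.05 was reached by 131 genes, 1.82% of all, and by 0 of the 10. The count over all genes moved with the setting, to 47 without transgenic kidney 1, 597 without control 2, 163 with DESeq2 and 634 with limma voom and sample weights. It was 0 among the 10 enzymes with DESeq2 and with limma too. Groups did not overlap in 5.98% of all genes (2.96% higher and 3.02% lower in transgenic kidneys) and in 0 of the 10. The median log2 fold change was 0.0079 over the 10 enzymes and 0.0010 over all genes, and the median size without sign was 0.037 against 0.075.

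The intervals bound the size of the differences. The 95% interval of the group difference stayed within 1.5-fold either way for all 10 enzymes, as it did for 89.6% of all genes. It stayed within 1.2-fold for 7 enzymes, against 21.0% of all genes, which were not matched to the enzymes by level. The exceptions were Gclc, Gpx3 and Prdx1. The widest bounds were 1.41-fold higher, for Gclc, and 0.790-fold, for Prdx1.

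**Figure D1:**
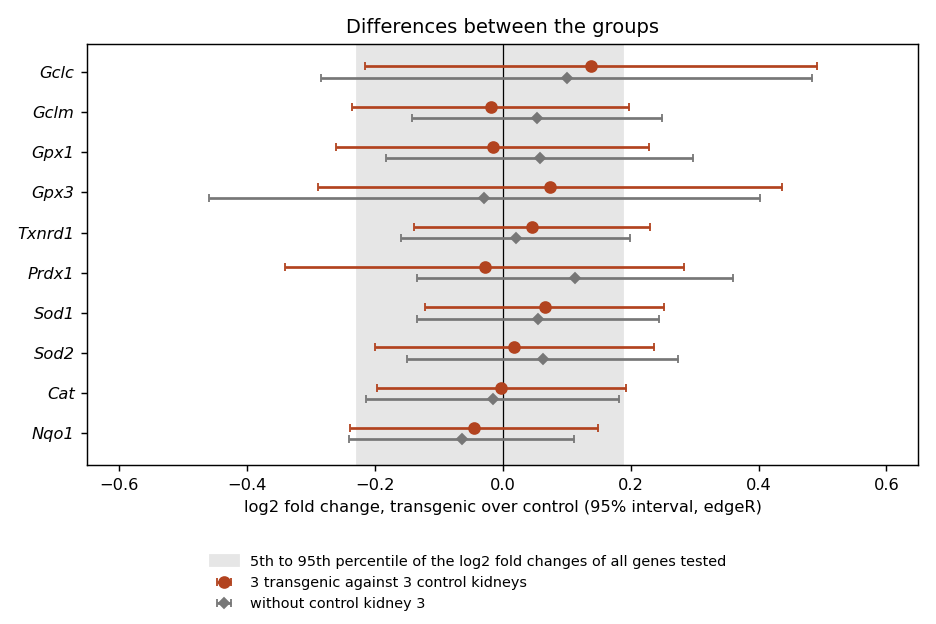
Log2 fold change of transgenic over control kidneys for each enzyme with its 95% interval (edgeR), from all 6 kidneys (circles) and without control kidney 3 (diamonds); the grey band spans the 5th to 95th percentile of all genes tested, -0.23 to 0.19. Every interval crosses 0, and without control 3 the sign turns for Gclm, Gpx1, Gpx3 and Prdx1.

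Glutathione synthesis was read from the subunits of its first enzyme. Gclc (chromosome 9, 77754535 to 77794489, mm10), the catalytic subunit, had 156, 240.5 and 167 CPM in transgenic kidneys 1, 2 and 3, against 176, 174 and 162 CPM in control kidneys 1, 2 and 3. A single library, transgenic kidney 2, lay above the other 5, which spanned a narrow range with both groups mixed. The means were 188 ± 45.9 CPM in transgenic and 171 ± 7.71 CPM in control kidneys (SD, n = 3 each), a log2 fold change of 0.14 ± 0.15 (SE). Without transgenic kidney 2 it was -0.080, and without control 3 it was 0.10.

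Gclm (chromosome 3, 122245487 to 122267215, mm10), which encodes the modifier subunit that makes the ligase more efficient, did not share that pattern. It stood at 154, 139 and 150.4 CPM in transgenic kidneys, against 149, 136 and 164 CPM in controls. Here transgenic kidney 2 was the lowest of its group, and the groups overlapped almost fully. Its log2 fold change was -0.019 ± 0.095 (SE), and it was 0.053 without control 3 and 0.024 without transgenic kidney 2. The ratio of Gclc to Gclm counts within a library needs no scaling between libraries. It was 1.01, 1.73 and 1.11 in transgenic kidneys, against 1.18, 1.28 and 0.987 in controls. Transgenic kidney 2 was again highest and the rest overlapped (exact permutation test of the log ratio, two-sided p = 0.8; 3 against 3 cannot go below 0.1).

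Gpx3 (chromosome 11, 54902854 to 54910387, mm10) was the second most abundant of the 7194 genes by CPM, after Kap, an androgen-regulated proximal tubule transcript. Its share of the counts of the listed genes was 3.51%, 3.31% and 3.08% in transgenic kidneys, against 3.21%, 3.56% and 2.66% in control kidneys. It stood at 35714, 34040.3 and 30953 CPM in transgenic kidneys, against 33131, 35356 and 27204 CPM in controls. Control 3 was the lowest of all 6 and control 2 lay close to the top. The means were 33569 ± 2415 CPM in transgenic and 31897 ± 4213 CPM in control kidneys (SD, n = 3 each), with a log2 fold change of 0.074 ± 0.16 (SE). Without control 3 the value was -0.029.

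Gpx1 (chromosome 9, 108339080 to 108340342, mm10), the cytosolic and mitochondrial glutathione peroxidase, ranked 16th by CPM. It stood at 3520.4, 3142 and 3457 CPM in transgenic kidneys, against 3204, 3277 and 3749 CPM in controls. Control 3, lowest for Gpx3, was highest for Gpx1, and transgenic kidney 2 was lowest. Between the groups the log2 fold change was -0.016 ± 0.11 (SE), and it was 0.058 without control 3 and 0.033 without transgenic kidney 2. The ratio of Gpx3 to Gpx1 counts was 10.1, 10.8 and 8.95 in transgenic kidneys, against 10.3, 10.8 and 7.26 in controls. Control 3 had the lowest ratio and the groups overlapped (exact permutation test, two-sided p = 0.8).

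In the thioredoxin arm, Txnrd1 (chromosome 10, 82833951 to 82897724, mm10), the cytosolic thioredoxin reductase, varied least of the 10 between its highest and lowest library, by 1.10-fold. It stood at 109, 105 and 111 CPM in transgenic kidneys, against 108, 106 and 101 CPM in controls. The groups interleaved, with control 3 lowest and transgenic kidney 3 highest. For Txnrd1 the log2 fold change was 0.046 ± 0.081 (SE) with all kidneys and 0.020 without control 3.

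Prdx1 (chromosome 4, 116685599 to 116700000, mm10), a cytosolic peroxiredoxin that thioredoxin resets, stood at 1098, 1058 and 1161 CPM in transgenic kidneys, against 1133, 912 and 1338 CPM in controls. The transgenic kidneys lay between the extremes of the control group, which held both the lowest and the highest library. The means were 1105 ± 51.6 CPM in transgenic and 1128 ± 213 CPM in control kidneys (SD, n = 3 each), a log2 fold change of -0.029 ± 0.14 (SE). Leaving out control 3 gave 0.11, leaving out control 2 gave -0.16 and leaving out transgenic kidney 2 gave 0.0021. Prdx1 has pseudogene copies, and how their reads were counted is not known here.

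The dismutases convert superoxide in separate compartments. Sod1 (chromosome 16, 90220762 to 90226333, mm10), the copper-zinc enzyme of the cytosol, had 1059, 1061 and 1018 CPM in transgenic kidneys, against 1052, 961 and 986 CPM in controls. Control 1 fell among the transgenic values, so the groups overlapped. The log2 fold change was 0.065 ± 0.082 (SE) with all kidneys and 0.055 without control 3.

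Sod2 (chromosome 17, 13007839 to 13018119, mm10), the manganese enzyme of mitochondria, stood at 475, 422 and 462 CPM in transgenic kidneys, against 467, 402 and 475 CPM in controls. In both groups the kidney numbered 2 was the lowest, and the labels do not tie equal numbers to a shared source. Its log2 fold change was 0.018 ± 0.095 (SE), and it was 0.062 without control 3, -0.017 without transgenic kidney 1 and -0.054 without control 2. The ratio of Sod1 to Sod2 counts was 2.23, 2.52 and 2.20 in transgenic kidneys, against 2.25, 2.39 and 2.08 in controls, with overlapping groups (exact permutation test, two-sided p = 0.7).

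Cat (chromosome 2, 103453904 to 103485153, mm10), the peroxisomal catalase, stood at 1113, 995 and 1106 CPM in transgenic kidneys, against 1086, 1080.3 and 1052 CPM in controls. The controls fell inside the range of the transgenic kidneys, of which kidney 2 was lowest. The means were 1071 ± 66.2 CPM in transgenic and 1073 ± 18.1 CPM in control kidneys (SD, n = 3 each). The log2 fold change was -0.0021 ± 0.085 (SE) and -0.016 without control 3. Leaving out transgenic kidney 2 gave 0.048, control 1 gave 0.0067 and control 2 gave 0.0031.

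Nqo1 (chromosome 8, 107388225 to 107403205, mm10), a quinone reductase often used as a readout of NRF2, was the least abundant of the 10 by CPM. It stood at 44.7, 41.6 and 40.1 CPM in transgenic kidneys, against 44.1, 44.0 and 42.3 CPM in controls. The highest and the lowest library were both transgenic. Nqo1 had a log2 fold change of -0.045 ± 0.085 (SE) with all kidneys and -0.064 without control 3. Among the 4 genes best known as NRF2 targets, Nqo1, Gclc, Gclm and Txnrd1, the estimates lay between -0.045 and 0.14, with both signs present. The ratio of Txnrd1 to Nqo1 counts was 2.434, 2.537 and 2.777 in transgenic kidneys, against 2.446, 2.415 and 2.395 in controls. The groups overlapped (exact permutation test, two-sided p = 0.2). Groups also overlapped in the ratios of Cat to Gpx1 and of Prdx1 to Sod1.

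**Figure D2:**
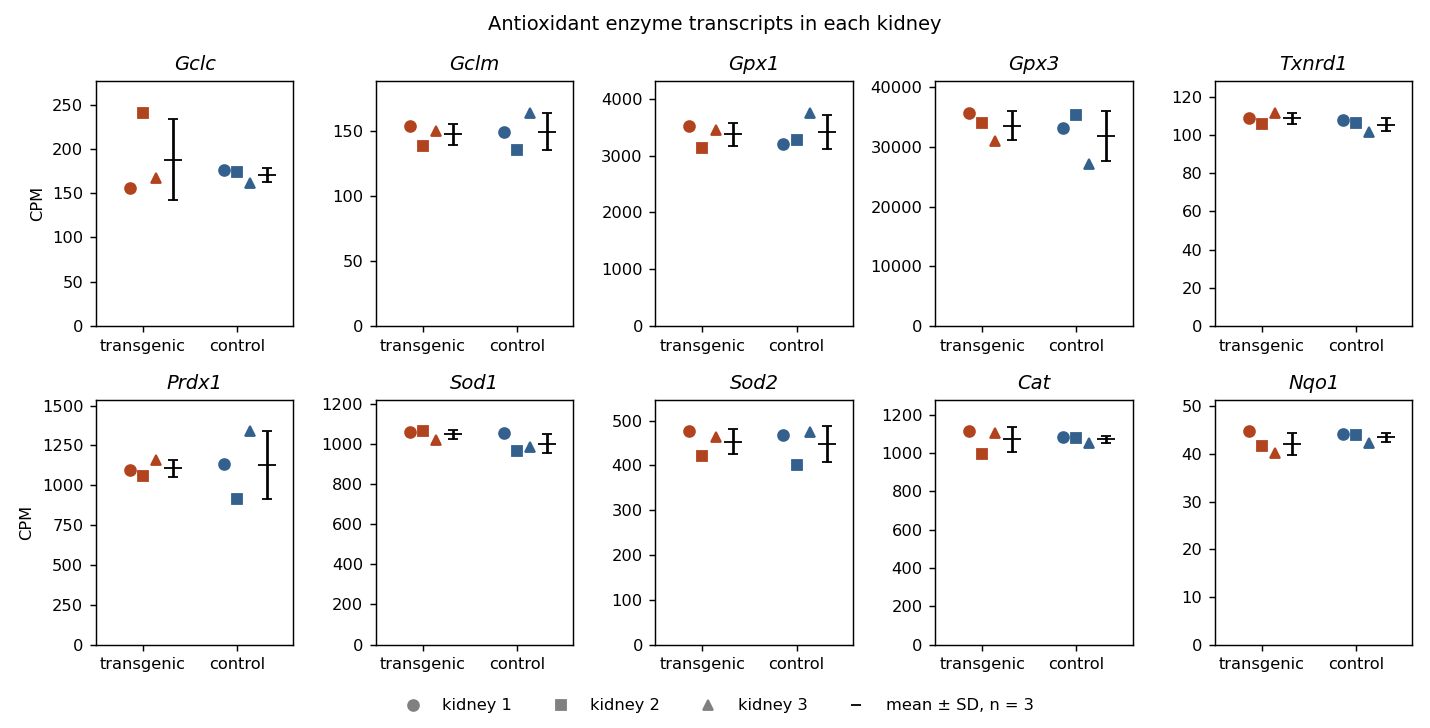
CPM of each enzyme transcript in the 3 transgenic (left) and 3 control kidneys (right), with a symbol for each kidney number and the mean ± SD beside the points; every axis starts at 0. The groups overlap in all 10 panels, and transgenic kidney 2 stands above the other kidneys for Gclc, at 240.5 CPM.

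Spread between kidneys varied among the enzymes. The highest library exceeded the lowest by 1.54-fold for Gclc, 1.47-fold for Prdx1 and 1.31-fold for Gpx3, and by 1.10- to 1.21-fold for the other 7. The median of this ratio was 1.19 over the 10 enzymes and 1.29 over all genes. The biological coefficient of variation of the fit was below the median of all genes, 11.4%, in 8 of the 10 enzymes; Gclc, at 14.4%, and Prdx1, at 12.6%, were above it. Sod1 had the lowest of the 10, at 8.60%, and 0.626% of all genes had a lower one. The fit moderates this value, and the observed coefficient of Sod1 was 2.29% in transgenic and 4.68% in control kidneys. All genes were not matched to the enzymes by level here, nor for interval width and effect size above. By CPM, Gpx3, Gpx1, Prdx1, Cat and Sod1 ranked 2, 16, 82, 88 and 92 of 7194 genes, and Nqo1 ranked 4261.

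The kidneys did not move as whole sets. Control 3 was highest for Gclm, Gpx1 and Prdx1 and lowest for Txnrd1 and Gpx3. Control 2 was lowest for Gclm, Sod1, Sod2 and Prdx1. Transgenic kidney 1 was highest for Nqo1, Gpx3, Sod2 and Cat, and lowest for Gclc. In transgenic kidney 2, Gclc lay 0.44 above its mean over the 6 kidneys on the log2 scale, while Gpx1 and Cat were at their lowest there, 0.11 below their means.

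**Figure D3:**
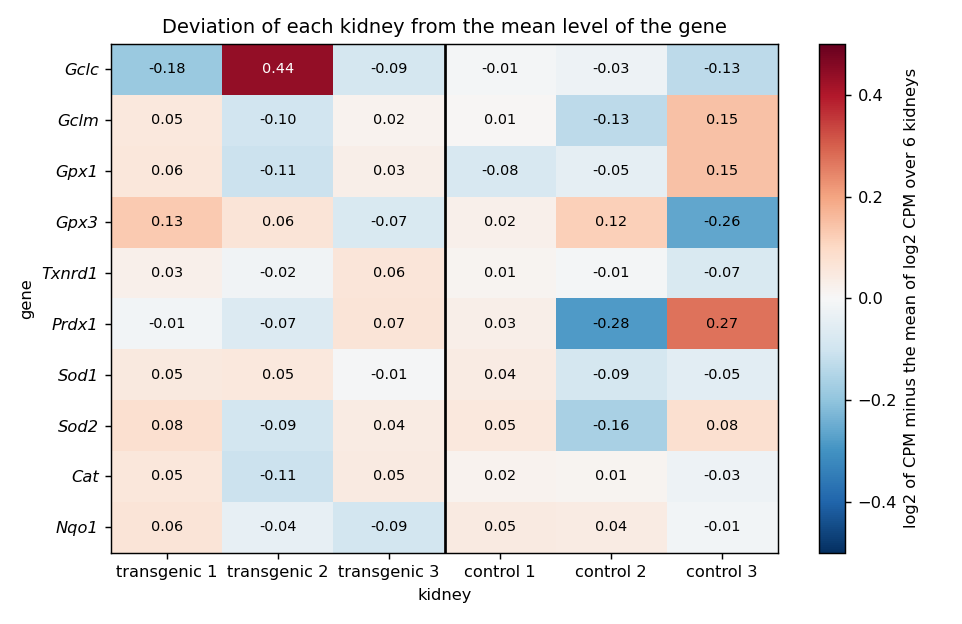
Log2 deviation of each kidney from the mean of log2 CPM over the 6 kidneys, by gene (rows) and kidney (columns; transgenic left of the line, control right of it), on a color scale from -0.5 to 0.5. The strongest cells are Gclc in transgenic kidney 2 at 0.44, Prdx1 in control 2 at -0.28 and control 3 at 0.27, and Gpx3 in control 3 at -0.26.

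Levels of different genes were compared as CPM per kilobase of transcript, with the longest coding transcript of GENCODE M21 as the length. Gpx3 led at 21059.6 ± 1515 in transgenic and 20011 ± 2643 in control kidneys (SD, n = 3 each), rank 3 of the 7060 genes with a length. Gpx1 followed at 3147 ± 189 in transgenic and 3181 ± 276 in control kidneys, and Sod1 at 1632 ± 37.4 CPM per kilobase in transgenic and 1559.5 ± 73.0 CPM per kilobase in control kidneys. Enzymes that remove peroxide or superoxide headed the list.

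Prdx1, at 482 ± 22.5 in transgenic and 492 ± 92.7 CPM per kilobase in control kidneys, and Cat, at 409.9 ± 25.3 in transgenic and 410.5 ± 6.94 in control kidneys, were neighbours. The mean of Prdx1 was above that of Cat in both groups. In control kidneys the gap lay within the SD of Prdx1, which was wider there than in transgenic kidneys. With the mean length over coding transcripts the gap exceeded that SD. Prdx1 then stood at 1110 ± 209 and Cat at 632 ± 10.7 CPM per kilobase in control kidneys. Sod2 stood at 77.3 ± 4.79 in transgenic and 76.4 ± 6.83 CPM per kilobase in control kidneys, and Gclc at 54.9 ± 13.4 in transgenic and 49.9 ± 2.25 CPM per kilobase in control kidneys. Txnrd1, Nqo1 and Gclm formed the low end. In transgenic kidneys they stood at 30.0 ± 0.829, 27.1 ± 1.51 and 26.4 ± 1.42 CPM per kilobase, and in control kidneys at 29.0 ± 0.931, 28.0 ± 0.639 and 26.8 ± 2.55; Nqo1 and Gclm did not differ beyond their spread. With the mean length over coding transcripts, Gclm stood at 84.0 CPM per kilobase over all 6 kidneys in place of 26.6, which puts it above Gclc at 52.4. On the same scale Prdx1 stood at 1099 in place of 487, and Cat at 632 in place of 410.2. The top 3 kept their order, and Nqo1, Gclc, Gclm and Txnrd1 were the lowest 4 under both lengths.

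**Figure D4:**
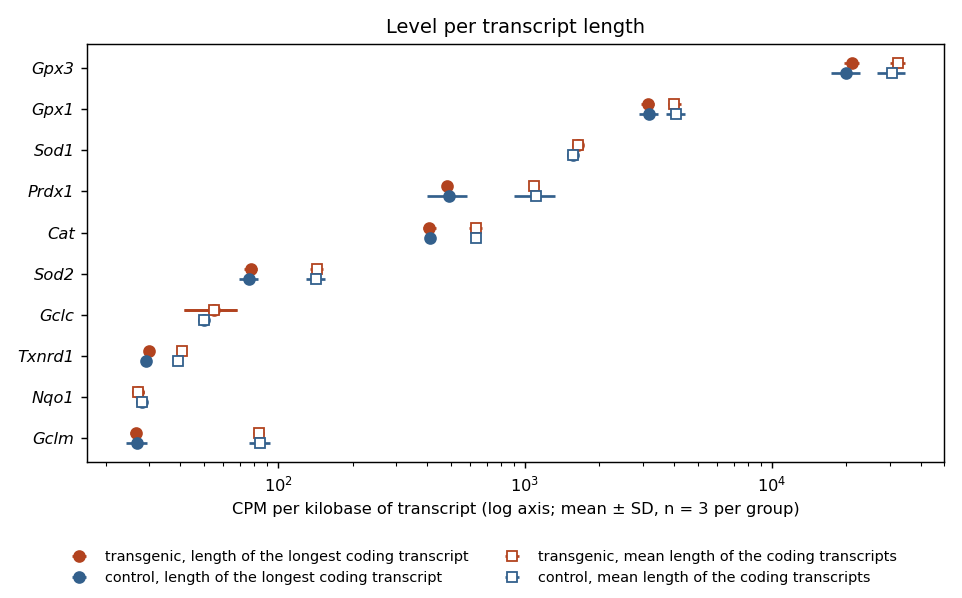
CPM per kilobase of transcript on a log axis for each enzyme (mean ± SD, n = 3 per group), with transgenic above control, using the longest coding transcript (filled) or the mean over coding transcripts (open). Gpx3 is highest under both lengths, and the choice of length moves Gclm, from 26.6 to 84.0 over all kidneys, more than any group difference does.

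The genes around these enzymes were read from 12 lists, which held 134 tested genes besides the 10. None of the 134 passed the test in either direction (edgeR), and 1 had an unadjusted p under 0.05. The median log2 fold change was -0.011, with 57 estimates above 0 and 77 below. Groups did not overlap in 6 genes, 4.48% of the 134, against 5.98% of all genes. The 3 without overlap on the higher side were Alad, a heme synthesis enzyme, Ftl1, the ferritin light chain, and Tldc2. The 3 on the lower side were Glrx, glutaredoxin, Fech, which inserts iron to complete heme, and Ddo, D-aspartate oxidase.

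Of the 18 genes of NRF2 control, 12 were measured, with a median log2 fold change of -0.015 and no call. Nfe2l2 and Keap1 fall outside the naming rule and were picked with their values known. Nfe2l2 stood at 60.2, 57.7 and 64.1 CPM in transgenic kidneys, against 60.5, 55.5 and 82.0 CPM in controls. Apart from control 3 the values were close together, and the log2 fold change was -0.12 ± 0.15 (SE), or 0.065 without control 3. Keap1 stood at 56.3, 48.03 and 51.3 CPM in transgenic kidneys, against 55.5, 57.2 and 52.9 CPM in controls (log2 fold change -0.088 ± 0.092, SE; -0.12 without control 3). The smallest p-values of the list were those of Cul3, the scaffold of the ligase that marks NRF2 for destruction (-0.22; -0.069 without control 3), the small MAF partners Mafk (0.11; 0.062 without control 3) and Mafg (0.17; -0.0028 without control 3), and the related factor Nfe2l1 (-0.079; -0.11 without control 3).

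Of 33 other NRF2 targets, 23 were measured, 10 with an estimate above 0 and 13 below, and the median was -0.0036 with no call. Gsta2, a glutathione transferase whose reads can be shared with its near-identical copy Gsta1, had the smallest p of the list, at a log2 fold change of 0.38 ± 0.20 (SE). It stood at 26.6, 32.3 and 19.6 CPM in transgenic kidneys, against 22.2, 16.1 and 21.8 CPM in controls, so the groups overlapped; the log2 fold change was 0.45 without control 3 and 0.21 without transgenic kidney 2. Next came malic enzyme, Me1 (-0.16; -0.11 without control 3), the oxidative stress growth inhibitor Osgin1 (0.22; 0.22 without control 3 and 0.093 without transgenic kidney 1) and the microsomal transferase Mgst1 (-0.28; -0.12 without control 3). Hmox1, inducible heme oxygenase, and Srxn1, sulfiredoxin, were likewise picked with their values known. Hmox1 stood at 30.6, 23.1 and 28.3 CPM in transgenic kidneys, against 21.4, 23.2 and 39.6 CPM in controls, with a log2 fold change of -0.039 ± 0.23 (SE), or 0.30 without control 3. Srxn1 stood at 74.0, 66.7 and 71.0 CPM in transgenic kidneys, against 70.6, 69.8 and 70.4 CPM in controls (0.0071 ± 0.086, SE; 0.0087 without control 3).

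The glutathione lists gave no call either. Synthesis and turnover had 15 of 18 genes measured, with a median log2 fold change of -0.011 and, besides Gclc, the smallest p-values in Chac2, which degrades glutathione (-0.54), glyoxalase Glo1 (-0.087; -0.056 without control 3) and the aminopeptidase Lap3 (-0.11; -0.018 without control 3). Chac2 was at 22.96, 27.1 and 24.7 CPM in transgenic kidneys, against 30.6, 24.0 and 54.0 CPM in controls. Control 3 was highest and the groups overlapped; the log2 fold change was -0.13 without control 3. Of 8 glutathione peroxidases 5 were measured, with a median of -0.011; besides Gpx1 and Gpx3, Gpx6 differed by -0.066 and Gpx8, of the endoplasmic reticulum, by -0.011. Without control 3 both signs turned, to 0.016 for Gpx6 and 0.061 for Gpx8. The 18 measured of 25 glutathione transferases had a median of 0.014, and after Gsta2 and Mgst1 the smallest p-values were those of Gstt1 (0.13; 0.089 without control 3) and Gstk1 (0.11; 0.15 without control 3).

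The thioredoxin and peroxiredoxin list had 22 of 24 genes tested, with 9 estimates above 0, 13 below and a median log2 fold change of -0.0091. Glrx, which reduces proteins bound to glutathione, was lower in every transgenic kidney, at 115, 110.1 and 111 CPM, against 124, 119.8 and 133 CPM in controls. Its log2 fold change was -0.17 ± 0.082 (SE), -0.12 without control 3, and it did not pass the test. Mitochondrial thioredoxin reductase Txnrd2 differed by 0.19 (0.22 without control 3), Txnl1 by -0.23 (0.011 without control 3) and Glrx2 by -0.089 (-0.041 without control 3). All 5 genes of the dismutase and catalase list were measured, with a median of 0.031; Ccs, the copper chaperone of SOD1, differed by 0.031 (0.0996 without control 3) and Sod3, the secreted dismutase, by 0.031 (-0.15 without control 3).

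NADPH feeds both reductase systems. Of 11 genes of its supply 10 were tested, with a median log2 fold change of -0.0039, led by the mitochondrial NAD kinase Nadk2 (-0.38; -0.12 without control 3), Me1, Pgls (0.11; 0.040 without control 3) and Nnt (-0.096; -0.015 without control 3). Selenoprotein supply bears on Gpx1, Gpx3 and Txnrd1, and 17 of its 19 genes were measured, with a median of -0.032. Sepp1, which carries selenium in plasma, stood at 2140.1, 2837 and 2584 CPM in transgenic kidneys, against 2957, 2367 and 3963 CPM in controls. The groups overlapped, and its log2 fold change was -0.30 ± 0.19 (SE), or -0.079 without control 3. Selt, Selm and Eefsec, the elongation factor for selenocysteine, differed by -0.23, -0.15 and 0.16. Without control 3 these were -0.069 for Selt, -0.13 for Selm and 0.060 for Eefsec.

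Heme and iron handling had 11 of 12 genes measured and a median log2 fold change of -0.039. Ftl1 stood at 3648, 3888 and 3713 CPM in transgenic kidneys, against 3322, 3593 and 3323 CPM in controls, a log2 fold change of 0.14 ± 0.095 (SE), or 0.12 without control 3. All 3 transgenic values lay above the controls, without passing the test. Alad differed by 0.13 (0.11 without control 3), Fech by -0.14 (-0.042 without control 3) and Ncoa4, which delivers ferritin for breakdown, by -0.37 (-0.077 without control 3). Of 27 oxidant sources 9 were measured, with a median of -0.066, among them Ddo (-0.15; -0.16 without control 3), the NADPH oxidase Nox4 (-0.30; 0.026 without control 3), Hao2 (-0.31; 0.099 without control 3) and Rac1 (-0.082; -0.0087 without control 3). The 9 measured of 16 genes of oxidation sensing and DNA damage had a median of 0.078, with Tldc2 (0.50; 0.44 without control 3), Sesn1 (-0.14; -0.23 without control 3), Park7 (0.078; 0.061 without control 3) and Ucp2 (0.17; -0.017 without control 3). Tldc2 was the 1 gene with an unadjusted p under 0.05. It was low, at 4.67, 4.16 and 4.79 CPM in transgenic kidneys, against 3.17, 3.53 and 2.92 CPM in controls.

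**Figure D5:**
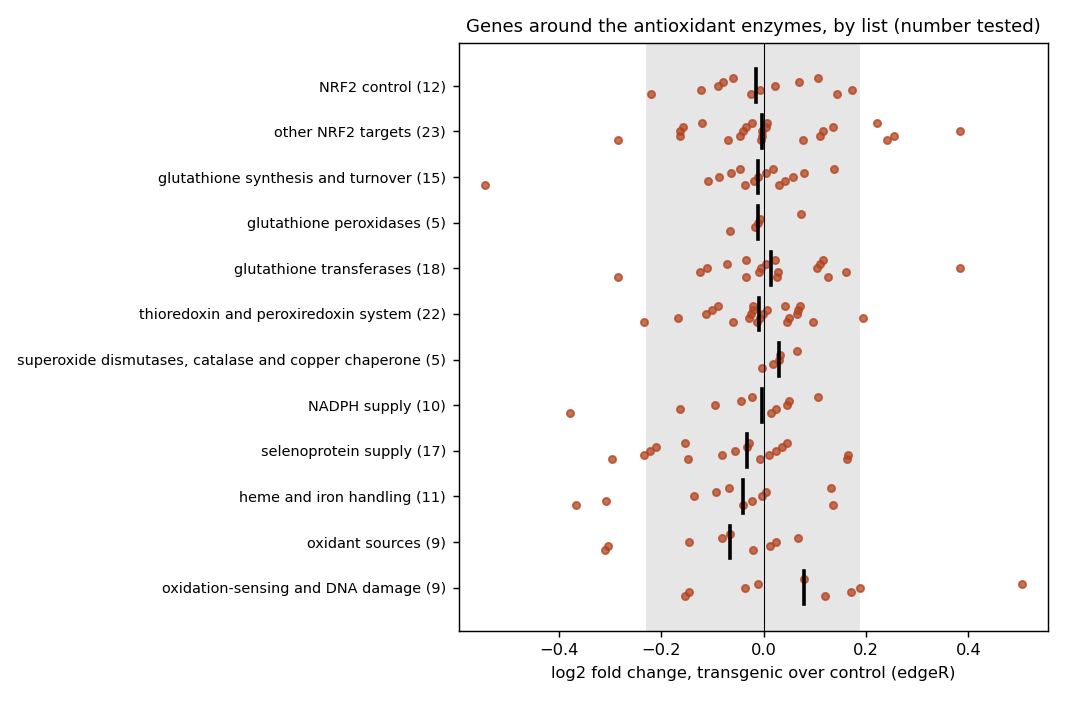
Log2 fold change of transgenic over control kidneys (edgeR) for each tested gene of the 12 lists, with the number tested after each name; black bars are list medians and the grey band spans the 5th to 95th percentile of all genes, -0.23 to 0.19. The medians lie between -0.066 for oxidant sources and 0.078 for oxidation sensing, and Tldc2 at 0.50 and Chac2 at -0.54 are the outermost points.

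Cell composition was checked with marker lists. The summed level of the 16 proximal tubule markers, the segment that makes Gpx3, was 73701 to 75924 CPM in transgenic kidneys and 73091 to 82264 CPM in control kidneys. Most of that sum is Kap, at 4.82%, 4.90% and 4.50% of the listed counts in transgenic kidneys, against 5.41%, 4.77% and 5.11% in controls. Of the 16 markers, 8 had an estimate above 0 and 8 below, with a median log2 fold change of -0.0072. Red blood cells, which carry Cat, Gpx1 and Prdx2, had 4 of 11 markers tested, summed at 526.5 to 791 CPM in transgenic and 562 to 965 CPM in control kidneys, among them Hba-a2 (log2 fold change -2.64) and Hbb-bs (-0.32). The summed ranges of the proximal tubule and red blood cell lists overlapped between the groups. Of the lists given here, the 7 inner medulla markers (7 of 7 measured) had summed levels that did not overlap, at 694 to 765 CPM in transgenic and 789 to 1008.0 CPM in control kidneys, among them Cryab (-0.38). Control 3 was the highest library for the inner medulla markers of smallest p, Cryab, S100a6 and Akr1b3. Summed ranges without control 3 are not given here. Ranges overlapped for thick ascending limb (9 of 9 markers, 3668 to 4063 CPM in transgenic and 3843 to 4488 CPM in control kidneys), distal nephron and collecting duct (10 of 11), macrophages (9 of 11), endothelium (5 of 9) and fat (3 of 8). Estimates were below 0 in 8 of 9 thick ascending limb, 8 of 10 distal and collecting duct and 8 of 9 macrophage markers. They were also below 0 in 6 of 7 inner medulla, 4 of 4 red blood cell, 3 of 5 endothelial and 2 of 3 fat markers. Ptger3 (-0.42), Plvap (-0.30), S100a6 (-0.42) and Cryab were lower in every transgenic kidney, and Eng (0.084) was higher. Without control 3 these were -0.37, -0.26, -0.22, -0.22 and 0.087. By list, groups did not overlap in 1 of 9 thick ascending limb and 2 of 7 inner medulla markers, all lower. Of 5 endothelial markers, 1 was lower and 1 higher. The other lists given here held no such marker. Over all genes the share without overlap was 5.98%. None of these markers passed the edgeR test with all kidneys. Hba-a2 was low, at 1.05, 2.06 and 1.24 CPM in transgenic kidneys, against 14.2, 12.7 and 0.258 CPM in controls, so the groups overlapped. It passed without control 3, its lowest library, at -3.23. Hba-a1 differed by -0.23 with all kidneys. Levels of the enzymes were not adjusted for these markers, and the markers' part in those levels was not tested.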

How the data were processed

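The study sequenced messenger RNA of 3 transgenic and 3 control kidneys on an Illumina HiSeq 2500, per the labels. The authors deposited 1 table; per the file headers it keeps a gene if its NRPKM fell between 5.0 and 84233.281 in 2 or more of the 6 samples, so genes low in nearly all kidneys are not part of it. Per the submitters' processing notes the build was mm10; aligner and counting program were not given in the sources used here. Deposited raw columns hold estimated counts, which were rounded to whole numbers; the deposited normalized columns hold log2 values and served 1 alternative. A further 12 columns of per-sample values match none of these samples and were not used.

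Gene positions came from RefSeq (GRCm38.p6; 7356 of 7373 rows matched by gene ID) and transcript lengths from GENCODE M21. The 178 X and Y genes were left out. The main test was the edgeR (4.0.16, R 4.3.3) quasi-likelihood test after filterByExpr, which removed 1 gene, and TMM scaling, with group as the single term, Benjamini-Hochberg adjustment and a threshold of 0.05. Standard errors are the log2 fold change over the square root of F, and intervals use the t quantile at the test's degrees of freedom. All tests were two-sided. Alternatives were keeping X and Y genes, no filter, a stricter filter (10 CPM in 3 libraries), size factors of DESeq2 (1.42.0), its own test, limma (3.58.1) voom with sample weights, limma on the deposited log2 values, the replicate number as a block, an adjusted p of 0.1, and leaving out each library. The fit was checked on simulated data.

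All pairs of libraries differed beyond sampling noise (chi-square per degree of freedom 23.3 to 152). The enzymes and lists were chosen with earlier results of these data known. From each pathway list the 4 genes of smallest p are named, and from marker lists up to 3; other names were chosen after their values were seen. Counting error is small at these depths, and the 3 samples per group set the precision. A further marker list is not reported here.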

Additional observations from a re-analysis of the deposited data

How the results depend on the processing

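No enzyme passed the threshold under any of the 14 alternatives, with adjusted p between 0.621 and 0.9999, and log2 fold changes stayed between -0.16 and 0.26. Of 140 recomputed values 122 kept their sign; Nqo1, Txnrd1 and Sod1 kept it throughout. With 1 library left out, Gclc ranged from -0.080 to 0.26, Gclm from -0.085 to 0.053, Gpx1 from -0.059 to 0.058, Gpx3 from -0.029 to 0.15, Sod2 from -0.054 to 0.067, Cat from -0.030 to 0.048 and Prdx1 from -0.16 to 0.11. With voom and sample weights, Gclm was 0.0090, Gpx1 0.072 and Sod2 -0.0043; Cat was 0.00044 with DESeq2 size factors and 0.00048 with DESeq2. The cause of these turns was not tested. The count of called genes, 1 in the main test, was 0 with X and Y genes kept (edgeR; 112 genes at an unadjusted p under 0.05, against 131 in the main test), 0 with limma on the deposited log2 values (134 at that level), 2 with DESeq2, and 0 to 2 with 1 library left out. Genes at that level numbered 47 without transgenic kidney 1, 597 without control 2 and 634 with voom and sample weights. The replicate block gave 1 call, and none among the 10 enzymes. Same-numbered kidneys deviated from their group means with correlations of 0.0018, -0.019 and 0.33, so the numbers were not taken as pairs, and not every kidney correlated best with its own number. The mean transcript length moved the level per length of 7 enzymes beyond 1 SD. Nqo1, Gclc and Sod1 have 1 coding transcript each, so their levels could not move. No test for single outlying libraries was made.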
